A study of Mus musculus with 4 samples.

Results

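Skeletal muscle spots are the positions on a Visium slide, an array of spots that capture RNA from the tissue section lying on them, with the highest level of 5 genes of the contractile apparatus. They were taken from an E16.5 and an E13.5 mouse embryo section, each on its own. A spot was kept if it lay over tissue and held at least 500 UMIs (unique molecular identifiers, each marking 1 captured RNA molecule). The score of a spot was the mean over Mylpf, Tnnt3, Myh3, Myh8 and Tnnc2 of log(1 + UMIs per 10000), and the 100 highest spots of each section were the members, 200 of 6808 kept embryo spots and of 7435 kept spots in all 4 sections of the series. The members were therefore selected on measured values, and these 5 genes are left out of what follows. A spot can hold several cells of different types, so each value describes the mixture of RNA under the spots.

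Both embryos were WT and untreated. Tissue was fresh frozen and cut at 8 µm, with 1 section at E16.5 and 1 at E13.5, and the labels name the tissue as mouse embryo without naming the animal. The remaining sections, 2 of P0 esophagus, are used only for a few values set beside the embryo ones. With 1 section per stage no difference could be tested against replicates: library, plane of section and stage change together and cannot be told apart. Intervals are exact 95% intervals that cover counting error only. Each level is a gene's UMIs per 1000000 UMIs (CPM), from counts added up over the 100 spots, and a gene is said to have risen or fallen only where the levels differed at least 2-fold, that is by at least 1 on the log2 scale.

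Skeletal muscle forms when myoblasts, directed by the transcription factors Myf5, Myod1, Myog and Myf6, leave the cell cycle and fuse into multinucleate fibres. The fibres then build sarcomeres, in which myosin filaments pull on actin filaments under the control of troponin and tropomyosin, and they store and release calcium through a specialised reticulum. In rodent embryos a primary generation of fibres forms first and a secondary generation follows in late gestation, and many contractile genes of the embryo, some of them shared with heart, give way to the forms used by mature muscle.

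The scores of the 2 member sets did not overlap. At E16.5 they lay between 4.24 and 4.47 (median 4.31), with the highest spot outside at 4.23, and at E13.5 between 1.89 and 3.21 (median 2.39), with the highest spot outside at 1.87. The limit passed through dense muscle at E16.5, where 212 other spots scored within 10% of it, against 22 other spots at E13.5. At E16.5, 806 of the 3488 other spots (23.1%) reached the score of the lowest E13.5 member, so the spots that serve as the background of that section held muscle RNA themselves. The members held 3336932 UMIs at E16.5 and 3047774 at E13.5, with medians of 34432 and 28904 per spot. In bulk sums of this kind, a smaller number of muscle cells and less RNA per muscle cell cannot be told apart.

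The label was checked with 8 muscle genes that the score did not use. Acta1 (skeletal alpha-actin), Myog and Myod1, Chrna1 (the alpha subunit of the acetylcholine receptor), the calcium release genes Ryr1, Cacna1s and Stac3, and Mymk (the fusion protein myomaker) were each at least 2-fold higher in the members than in the other spots of their own section at both stages. Markers of heart were low: the heart list, 10 genes, summed to 119 CPM in E16.5 members and 89.9 CPM in E13.5 members. In the other spots of the same sections the list summed to 1736 and 1054 CPM. In the heart spots it summed to 15787 and 19241 CPM, which follows in part from their choice by 5 heart genes. The smooth muscle list, 6 genes, summed to 365 CPM in E16.5 members against 482 CPM in other spots. At E13.5 its sum was higher in the members, 946 CPM against 328 CPM, and Acta2 made up 869 CPM of it. Of 5 genes that passed at each stage, 0 were higher and 4 lower at E16.5, and 1 was higher and 3 lower at E13.5. The smooth muscle genes Myh11, Actg2 and Lmod1 stayed at 5.39, 8.09 and 2.10 CPM in E16.5 members and at 3.61, 7.55 and 1.97 CPM in E13.5 members. No member was among the highest heart or smooth muscle spots.

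The members formed compact patches, although the grid position took no part in the choice. Of the E16.5 members 94 touched another member, and of the E13.5 members 97 did, while members made up 2.79% and 3.11% of the kept spots. At E16.5 there were 18 patches, 4 of them with at least 8 spots (25, 19, 15 and 8), and 6 spots stood alone. At E13.5 there were 15 patches, 6 of them with at least 8 spots (22, 14, 14, 11, 11 and 8), and 3 spots stood alone.

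**Figure D1:**
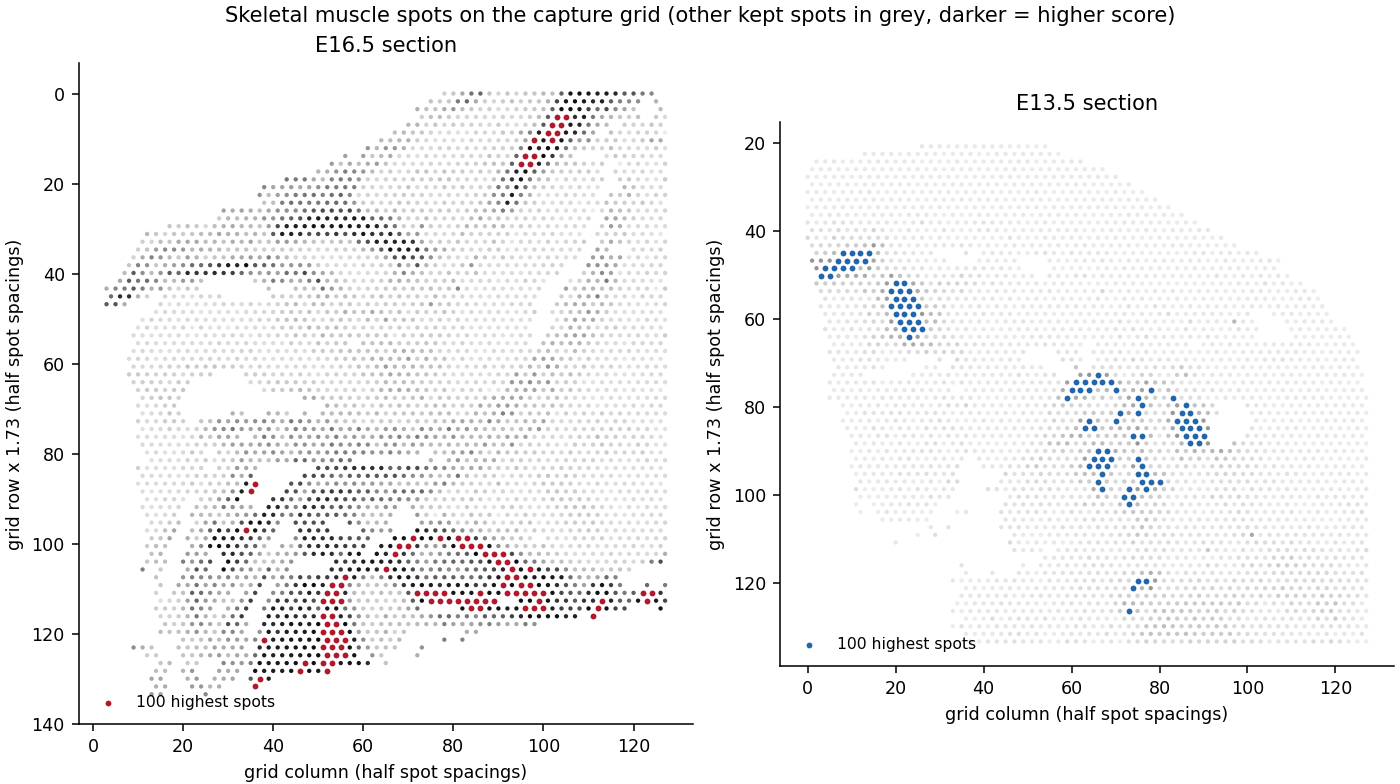
Position of the 100 skeletal muscle spots of the E16.5 section (left, red) and the E13.5 section (right, blue) on the capture grid, with columns and rows in units of 0.5 spot spacings. Other kept spots are grey, darker for a higher score, on the same scale in both panels. Dark spots surround the members over a wide area at E16.5. The highest other spot scored 4.23 at E16.5 and 1.87 at E13.5, so E13.5 spots are paler by the scale.

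The genes that distinguish the members can be shown by their promoters, since muscle transcription factors bind short motifs: Myod1 and its relatives the E-box CANNTG, of which CAGCTG is the form counted here, and the Mef2 proteins and serum response factor the MEF2 motif and the CArG box. Promoters of 300 bases, 250 before to 50 after the start, were taken from RefSeq (GRCm38.p6) and searched on both strands. Of the 100 genes with the highest ratio of members over other spots at E16.5, 73 had a promoter in the table, and 34 of these (46.6%) held CAGCTG, against 14.7% of 7589 promoters of genes that passed the filter and 16.1% of all 27025. CANNTG, which includes every CAGCTG, was in 86.3% of the 73, against 61.4% and 72.1%. The MEF2 motif was in 16.4%, against 1.69% and 3.26%, and the CArG box in 5.48%, against 1.52% and 1.57%. A match is a description of these letters and not evidence of binding.

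The promoters of 4 genes from the contractile, calcium and synaptic lists, to which the results return, are shown with the searched motif in capitals (CAGCTG in Chrna1, CAGCTG and the CArG box in Acta1, the CArG box in Actc1, the MEF2 motif in Pvalb). All 4 held a match, while the promoter of Myog held 0 exact matches of CAGCTG, the MEF2 motif and the CArG box. The Myog promoter held 2 matches of the wider CANNTG. Sites that differ from a searched form by a single base were not counted, so it may hold such sites. Chrna1 lies on the minus strand at chr2:73580289-73580588 with CAGCTG beginning 92 and 44 bases before the start. Acta1 lies on the minus strand at chr8:123894726-123895025 with CAGCTG 221 bases and the CArG box 73 bases before the start. Actc1, the cardiac alpha-actin gene, lies on the minus strand at chr2:114052826-114053125 with a CArG box 47 bases before the start. Pvalb, which encodes the calcium buffer parvalbumin, lies on the minus strand at chr15:78206351-78206650 with a MEF2 motif 180 bases before the start.
Chrna1: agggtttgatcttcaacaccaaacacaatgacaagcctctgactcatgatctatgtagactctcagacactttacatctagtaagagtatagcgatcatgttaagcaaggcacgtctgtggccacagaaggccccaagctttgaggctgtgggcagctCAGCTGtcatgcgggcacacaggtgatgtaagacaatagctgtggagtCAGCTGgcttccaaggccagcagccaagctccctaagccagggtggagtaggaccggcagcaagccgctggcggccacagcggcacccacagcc
Acta1: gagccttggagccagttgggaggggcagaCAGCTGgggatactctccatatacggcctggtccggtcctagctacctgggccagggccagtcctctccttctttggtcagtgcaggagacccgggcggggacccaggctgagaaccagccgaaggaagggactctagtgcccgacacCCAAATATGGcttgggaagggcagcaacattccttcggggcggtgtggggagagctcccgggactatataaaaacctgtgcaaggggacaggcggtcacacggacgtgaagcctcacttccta
Actc1: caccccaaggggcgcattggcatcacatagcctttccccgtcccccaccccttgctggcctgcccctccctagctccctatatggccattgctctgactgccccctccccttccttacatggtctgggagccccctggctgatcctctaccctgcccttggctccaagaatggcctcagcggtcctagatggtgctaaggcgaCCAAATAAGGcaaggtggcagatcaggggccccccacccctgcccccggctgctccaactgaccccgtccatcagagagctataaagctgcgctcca
Pvalb: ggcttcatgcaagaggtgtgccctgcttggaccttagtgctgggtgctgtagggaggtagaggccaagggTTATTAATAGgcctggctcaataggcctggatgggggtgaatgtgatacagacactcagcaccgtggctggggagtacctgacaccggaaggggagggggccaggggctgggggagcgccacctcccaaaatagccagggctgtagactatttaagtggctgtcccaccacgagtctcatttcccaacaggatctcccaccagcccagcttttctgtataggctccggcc

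Against the other spots of the same section, 489 of 9549 genes (5.12%) were at least 2-fold higher in the members at E16.5 and 1744 (18.3%) at least 2-fold lower. At E13.5, 446 of 10058 genes (4.43%) were higher and 1205 (12%) lower. Of the 192 genes of the 13 muscle lists in the files, 162 passed the filter on low values at E16.5, and 118 were higher and 8 lower (median log2 ratio 2.06, against -0.35 over all genes). At E13.5, 156 passed, and 107 were higher and 11 lower (median 2.16, against -0.10). The ratios follow in large part from the choice of spots by muscle genes and are given as a description.

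Of the filament lists, those of titin and of the thin filament held no gene lower in the members. All 21 genes of titin, the Z-disc and the M-band that passed at E16.5 were higher in the members, as were 19 of 19 at E13.5. Ttn, the giant spring of the sarcomere, had 2266 CPM in E16.5 members against 356 CPM in other spots, and 530 CPM in E13.5 members against 69.3 CPM. Acta1 had 29992 against 3122 CPM at E16.5 and 2640 against 79.8 CPM at E13.5. Myl1, a fast myosin light chain, had 13170 against 1338 CPM and 2059 against 62.9 CPM. Thin filament genes were higher in 13 of 16 and 11 of 14, with 0 lower at either stage. Myosin light chains and binding proteins were higher in 6 of 9 and lower in 1 at E16.5, and higher in 5 of 7 and lower in 2 at E13.5. Myosin heavy chains were higher in 2 of 5 and lower in 1 at E16.5, and higher in 1 of 3 and lower in 1 at E13.5.

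Calcium handling genes were higher in 19 of 21 at E16.5 and 14 of 18 at E13.5. The 1 lower gene at each stage was Pln, which encodes phospholamban of heart and slow muscle, with 6.59 CPM in E16.5 members against 130 CPM in other spots and 3.94 CPM in E13.5 members against 51.6 CPM. Energy genes were higher in 14 of 21 at E16.5 and 9 of 16 at E13.5. Cox7a1, a cytochrome oxidase subunit also abundant in brown fat and heart, was lower in the members at both stages, with 295 CPM in E16.5 members against 609 CPM in other spots and 6.23 CPM in E13.5 members against 20.7 CPM. Genes of the dystrophin complex and the sarcolemma were higher in 10 of 11 at E16.5 and 4 of 10 at E13.5, with 0 lower.

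Several muscle lists had a larger median ratio at E13.5, among them regulators, synaptic genes and myosin light chains. For the light chains it was 2.60 over 9 genes at E16.5 and 4.56 over 7 genes at E13.5. The backgrounds differ: the muscle lists held 2.61% of UMIs in E16.5 other spots and 1.01% in E13.5 other spots. The ratios of the stages are therefore not directly comparable. Myogenic regulators were higher in 9 of 10 genes at E16.5 (median 1.959) and 11 of 15 at E13.5 (median 2.73), with 0 lower. Myog had 331 CPM in E16.5 members against 58.3 CPM in other spots (log2 2.497), and 636 CPM in E13.5 members against 23.0 CPM (log2 4.76). Genes of the neuromuscular junction, the synapse of motor neuron and fibre, were higher in 7 of 10 and 8 of 10, and 1 was lower at each stage: Agrn, which encodes agrin, with 42.9 CPM in E16.5 members against 132 CPM in other spots and 105 CPM in E13.5 members against 229 CPM. Genes of myoblast adhesion and fusion were higher in 3 of 12 at E16.5 and in 8 of 12 at E13.5, and Cdh2 and Ncam1, both abundant in neural tissue, were lower at both stages.

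By the size of the ratio, the 15 leading genes at E13.5 were Tceal7 (5.26), Mybph (5.21), Mymk (5.12), Neb, Atp2a1, Acta1, Myl1, Myot, Il17b (4.90), Vgll2, Chrna1, Mymx, Myog, Myom2 and Chrng. Mybph, Neb, Atp2a1, Acta1, Myl1, Myot and Myom2 belong to filaments and calcium handling, and Mymk, Mymx, Myog, Vgll2, Chrna1 and Chrng to fusion, regulation and the synapse. At E16.5 they were Klk1b26 (3.56), Ppp1r27, Mybpc1, Myoz1, Atp1b4, Myl1, Mstn (3.29), Tnni2, Myot, Acta1, Tceal7, Ckmt2, Tmod4, Arhgap36 and Ampd1. Klk1b26, a kallikrein gene with close copies in its family, had 85.1 CPM in E16.5 members against 6.77 CPM in other spots, and 4.27 CPM in E13.5 members against 0.0732 CPM. Mstn, the secreted inhibitor of muscle growth myostatin, had 53.9 CPM in E16.5 members against 5.05 CPM and 39.0 CPM in E13.5 members against 1.59 CPM.

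Between the stages, 697 of 9082 genes (7.67%) rose and 1790 (19.7%) fell in the members at E16.5, relative to E13.5. The median over all genes was -0.49 on the log2 scale: CPM are shares of a total, and the 13 muscle lists held 12.9% of UMIs in E16.5 members against 3.58% in E13.5 members. With TMM factors, which rest on the bulk of genes, the median was 0.00, 1265 genes rose and 542 fell, so the share of risen among all called genes was 70.0% in place of 28.0%. Of the 170 muscle list genes that passed the filter, 86 rose and 22 fell (median 1.06), and with TMM factors 11 fell. Mitochondrial genes held 3.997% of UMIs in E16.5 members and 1.28% in E13.5 members. With mitochondrial, hemoglobin and score genes taken out of the total, 781 genes rose and 1460 fell.

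Genes of energy supply had a median of 2.64, the highest of the 13 muscle lists, with 17 of 19 risen and 0 fallen. Ckm (chr7:19411094-19421583, GRCm38.p6), the muscle creatine kinase that regenerates ATP, had 8647 CPM in E16.5 members (8548 to 8748) against 72.2 CPM in E13.5 members (63.0 to 82.4), a log2 ratio of 6.89. Per spot it lay between 5811 and 12005 CPM with a median of 8633 at E16.5, and between 0 and 536 CPM with a median of 37.1 at E13.5. Every E16.5 spot was above every E13.5 spot. Spots of 1 section are not replicates, and the scores of both member sets did not overlap either. Such a gap in a muscle gene is therefore a description. Ckmt2, the creatine kinase of muscle mitochondria, was counted 938 times in E16.5 members and 1 time in E13.5 members, a ratio of 857 (153 to 33874). Eno3, the muscle enolase, had 2928 against 193 CPM and Pygm, the muscle glycogen phosphorylase, 819 against 53.8 CPM.

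Calcium handling genes rose in 16 of 20, with 0 fallen (median 1.91). Casq1, the fast calsequestrin that binds calcium in the reticulum, had 1136 CPM in E16.5 members (1100 to 1173) against 47.2 CPM in E13.5 members (39.8 to 55.6), and all 100 E16.5 spots were above the highest E13.5 spot. Pvalb, whose promoter is printed above, was at 100 CPM in E16.5 members and had 0 UMIs in E13.5 members, which makes it at least 102-fold higher at E16.5 with a floor of 3 UMIs over the summed spots. Atp2a1, the fast calcium pump, had 1419 against 149 CPM, and Sln, which encodes its small inhibitor sarcolipin, 5060 against 812 CPM. The release channel Ryr1 had 273 against 108 CPM, a log2 ratio of 1.33.

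Genes of titin, the Z-disc and the M-band rose in 19 of 21 (median 2.04) and thin filament genes in 10 of 16 (median 1.89), with 1 fallen. Acta1 per spot lay between 22372 and 37123 CPM (median 29776) at E16.5 and between 714 and 8323 CPM (median 2394) at E13.5, with no overlap. The gap depends on the spots chosen: E16.5 spots matched to the E13.5 members on the score had 4189 CPM of Acta1 in sum, against 2640 CPM in E13.5 members. Tnni2, the fast troponin I, had 6074 against 379 CPM, and Myoz1, a Z-disc partner of calcineurin, 1072 against 13.8 CPM, both with all E16.5 spots above all E13.5 spots. Mybpc2, the fast myosin-binding protein C, had 58.4 CPM in E16.5 members and 0 UMIs in E13.5 members, at least 59.4-fold. The fallen thin filament gene was Tnnc1, the troponin C shared by heart and slow muscle, with 301 CPM in E16.5 members (283 to 320) against 1024 CPM in E13.5 members (989 to 1061). Mybph and Myh7b fell too, to 216 and 12.3 CPM in E16.5 members against 563 and 51.2 CPM in E13.5 members.

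Of 11 genes of the dystrophin complex and the sarcolemma, the membrane of the fibre, 8 rose and 0 fell (median 1.48), while with E16.5 spots matched to the E13.5 members on the score 1 was higher and 1 lower (median -0.03). Cav3, the muscle caveolin, had 537 CPM in E16.5 members against 142 CPM in E13.5 members. Dmd, the dystrophin gene itself, had 44.1 against 15.4 CPM. Of 10 genes of sarcomere assembly and protein turnover 6 rose and 0 fell (median 1.28), while with matched spots 1 was higher and 6 lower (median -1.41). Cavin4, a partner of Cav3, had 268 against 28.2 CPM, and Hspb7 191 against 9.52 CPM. Within 2-fold stayed the chaperone Unc45b, which folds myosin, with 146 against 92.9 CPM, and Smyd1, a methyltransferase of myosin assembly, with 128 against 95.5 CPM.

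Myosin light chains and myosin-binding proteins rose in 6 of 10, with Mybph the 1 that fell (median 1.36). Mybpc1, the slow myosin-binding protein C, had 2158 CPM in E16.5 members against 145 CPM in E13.5 members, with every E16.5 spot above every E13.5 spot. Mylk2, the skeletal myosin light chain kinase, had 76.1 against 1.31 CPM. Myl4, a light chain of the embryo and the atrium, had 1384 against 1807 CPM and did not reach the limit.

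Among the myosin heavy chains outside the score, the adult fast forms Myh1, Myh2 and Myh4 had 49.7, 24.0 and 39.0 CPM in E16.5 members against 16.7, 0.656 and 2.30 CPM in E13.5 members. These genes are near-identical in sequence, and the sources used here do not say how shared reads were assigned, so the split between them is uncertain. Myh7, the slow form, had 293 against 371 CPM, a log2 ratio of -0.34 that did not reach the limit.

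**Figure D2:**
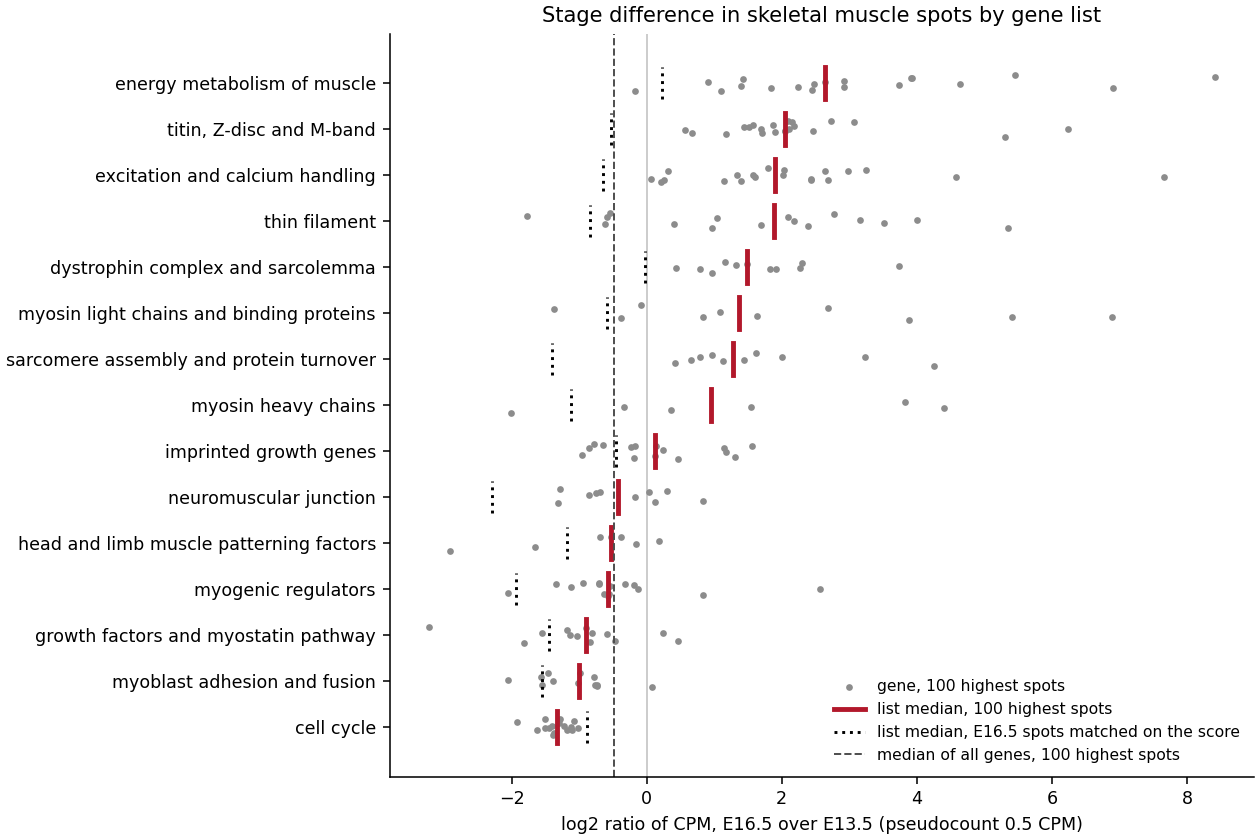
Log2 ratio of CPM, E16.5 over E13.5, in skeletal muscle spots for each gene (grey points) and list median (red bars), with the median of all genes at -0.49 (dashed). Dotted bars are the list medians for E16.5 spots matched to the E13.5 members on the score; filament, calcium and energy lists lie to the right with the 100 highest spots, and of these lists only energy metabolism keeps a median above 0 with matched spots (0.23).

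Myogenic regulators as a list were close to the background: 3 of 15 genes fell and 1 rose, where 19.7% of all genes fell, and the median was -0.57 against -0.49 over all genes (-0.10 with TMM factors). Myod1 had 46.2 CPM in E16.5 members (39.1 to 54.0) against 193 CPM in E13.5 members (178 to 209), a log2 ratio of -2.05. Per spot it lay between 0 and 172 CPM (median 34.0) at E16.5 and between 0 and 608 CPM (median 166) at E13.5, and 49 E13.5 spots exceeded the highest E16.5 spot while the others overlapped with the E16.5 range. Myf5 and Msc, which encodes a repressor that binds E-boxes, also fell, to 16.48 and 42.0 CPM in E16.5 members against 36.4 and 107 CPM in E13.5 members. Myf6, the regulator of late differentiation, rose to 121 CPM in E16.5 members against 20.01 CPM in E13.5 members. Myog, with 331 against 636 CPM (log2 -0.94), and Pax7, the marker of muscle progenitors, with 14.1 against 23.3 CPM (log2 -0.71), did not reach the limit.

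Of 12 adhesion and fusion genes 6 fell and 0 rose (median -0.998, and -0.52 with 3 fallen under TMM factors). Of all genes 19.7% fell (median -0.49). Itga4, a subunit of the integrin that binds Vcam1, had 12.9 CPM in E16.5 members against 54.8 CPM in E13.5 members, and Jam3, a junctional adhesion protein, 64.1 against 168 CPM. The 2 fusion proteins differed: Mymx (myomixer) fell to 79.4 CPM against 161 CPM, while Mymk had 185 CPM in E16.5 members (171 to 200) against 176 CPM in E13.5 members (162 to 192), a log2 ratio of 0.07. Per spot Mymk lay between 0 and 423 CPM at E16.5, with a median of 181, and between 0 and 424 CPM at E13.5, with a median of 161.

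At the neuromuscular junction the list was also close to the background: 2 of 10 genes fell, where 19.7% of all genes did, and 0 rose, with a median of -0.43 against -0.49 over all genes, which turned to 0.05 with TMM factors. The fallen genes were Agrn (log2 -1.28) and Ache, the acetylcholinesterase, with 20.1 CPM in E16.5 members against 50.5 CPM in E13.5 members. The receptor subunits stayed within 2-fold: Chrna1 had 68.9 against 116 CPM, Chrnb1 62.0 against 60.4 CPM, Chrnd 42.0 against 23.3 CPM and the embryonic subunit Chrng 74.6 against 68.6 CPM. Chrne, which replaces Chrng in adult muscle, had 3 UMIs in E16.5 members and 1 in E13.5 members, so its share of both was 1.19% and 0.476%.

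**Figure D3:**
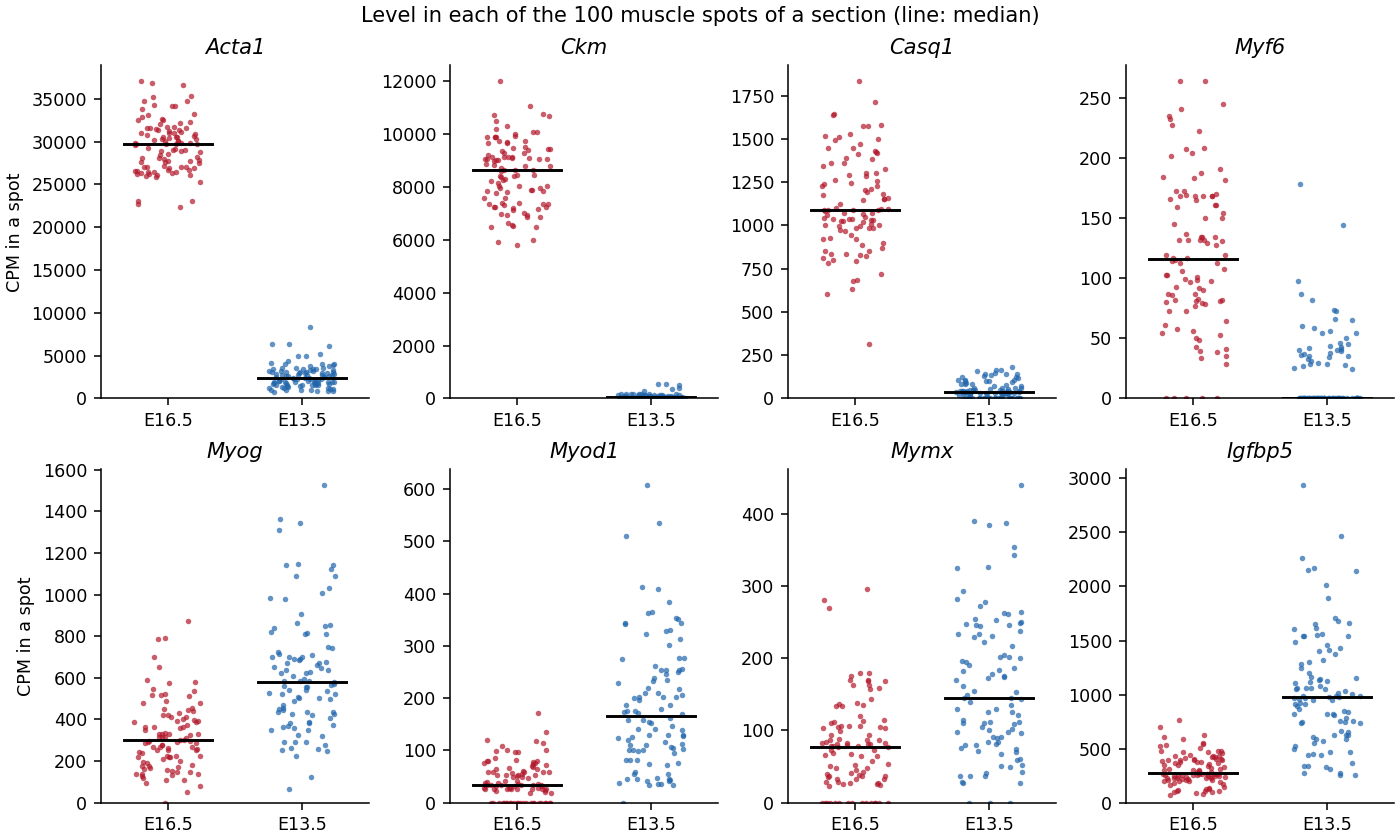
CPM in each of the 100 skeletal muscle spots at E16.5 (left in each panel) and E13.5 (right) for 8 genes, with the median as a line and each axis starting at 0. Acta1, Ckm and Casq1 do not overlap between stages, Myf6 is higher at E16.5, and Myod1, Mymx and Igfbp5 are higher at E13.5 with overlap.

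Growth factor genes fell in 6 of 13, with 0 risen (median -0.91), where 19.7% of all genes fell (median -0.49). Fst, the antagonist of myostatin and activin, had 7.49 CPM in E16.5 members (4.85 to 11.1) against 74.2 CPM in E13.5 members (64.8 to 84.5), a log2 ratio of -3.22. Igfbp5 and Igfbp3, which bind insulin-like growth factors, fell to 304 and 140 CPM against 1076 and 409 CPM, and 68 E13.5 spots exceeded all E16.5 spots for Igfbp5. Mstn, with 53.9 against 39.0 CPM, and Igf2, with 1648 against 1398 CPM, stayed within 2-fold. Of 7 factors that pattern head and limb muscle 2 fell and 0 rose (median -0.53), near the 19.7% fallen and the median of -0.49 over all genes. Meox1, a homeobox factor of the somite and its derivatives, fell to 11.1 CPM in E16.5 members against 86.6 CPM in E13.5 members, and Cxcl12, a chemokine that guides migrating cells, to 48.0 CPM against 153 CPM. Tbx1, with 36.0 against 46.9 CPM, did not reach the limit.

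All 16 cell cycle genes fell (median -1.33), and 4 of 16 did with TMM factors (median -0.85). Mki67, a marker of dividing cells, had 68.0 CPM in E16.5 members against 148 CPM in E13.5 members. In the other spots it had 86.2 against 100 CPM. Relative to other spots of the same section, 0 of 15 cell cycle genes were called at E16.5 and 1 of 16, Bub1, was higher at E13.5. Among 15 imprinted genes 4 rose and 0 fell, while with matched spots 0 were higher and 3 lower (median -0.46), and Meg3 (-0.45) and Rian (-0.66) changed sign. The risen genes were H19, with 6625 against 2932 CPM, and Meg3, Rian and Mirg, 3 noncoding RNAs of 1 domain, with 3240, 1177 and 284 CPM in E16.5 members against 1467, 398 and 115 CPM in E13.5 members.

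A ratio of 2 genes within a library does not depend on the library total, so pairs of related genes were set against each other. Skeletal Acta1 made up 80.0% of the UMIs of Acta1 and cardiac Actc1 in E16.5 members (79.8 to 80.2) and 40.7% in E13.5 members (40.0 to 41.4). Fast Tnni2 made up 89.3% of Tnni2 and slow Tnni1 against 25.3%, and fast Atp2a1 80.8% of Atp2a1 and Atp2a2 against 34.0%. Ckm made up 99.2% of Ckm and the brain form Ckb against 30.6%, Eno3 96.1% of Eno3 and Eno1 against 51.5%, and Casq1 50.9% of Casq1 and Casq2 against 18.9%. In these 6 pairs the form typical of mature muscle held the larger share at E16.5. Among further energy genes, Pgam2 made up 84.8% of Pgam2 and Pgam1 against 32.5%, and Cox6a2 69.5% of Cox6a2 and Cox6a1 against 33.7%. Cox8b made up 25.6% of Cox8b and Cox8a against 5.28%, and Cox7a1 17.4% of Cox7a1 and Cox7a2 against 0.823%.

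For Tnnt1, Ryr1 and Actn3 the shares of the stages lay closer together. Tnnt1, the slow troponin T, made up 76.6% of Tnnt1 and Tnnt2 in E16.5 members and 75.9% in E13.5 members. Ryr1 made up 89.9% of Ryr1 and Ryr3 against 95.4%, and Actn3, an alpha-actinin of fast fibres, 7.56% of Actn3 and Actn2 against 4.87%. In the other spots of E13.5 Atp2a1 made up 1.77%, Acta1 12.5%, Tnni2 7.39%, Ckm 2.37%, Eno3 20.8% and Casq1 52.3%. In E13.5 heart spots the Casq1 share was 57.1%, so a high share of Casq1 was not particular to E16.5 members. The part of other cell types in the shares of the members was not tested.

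**Figure D4:**
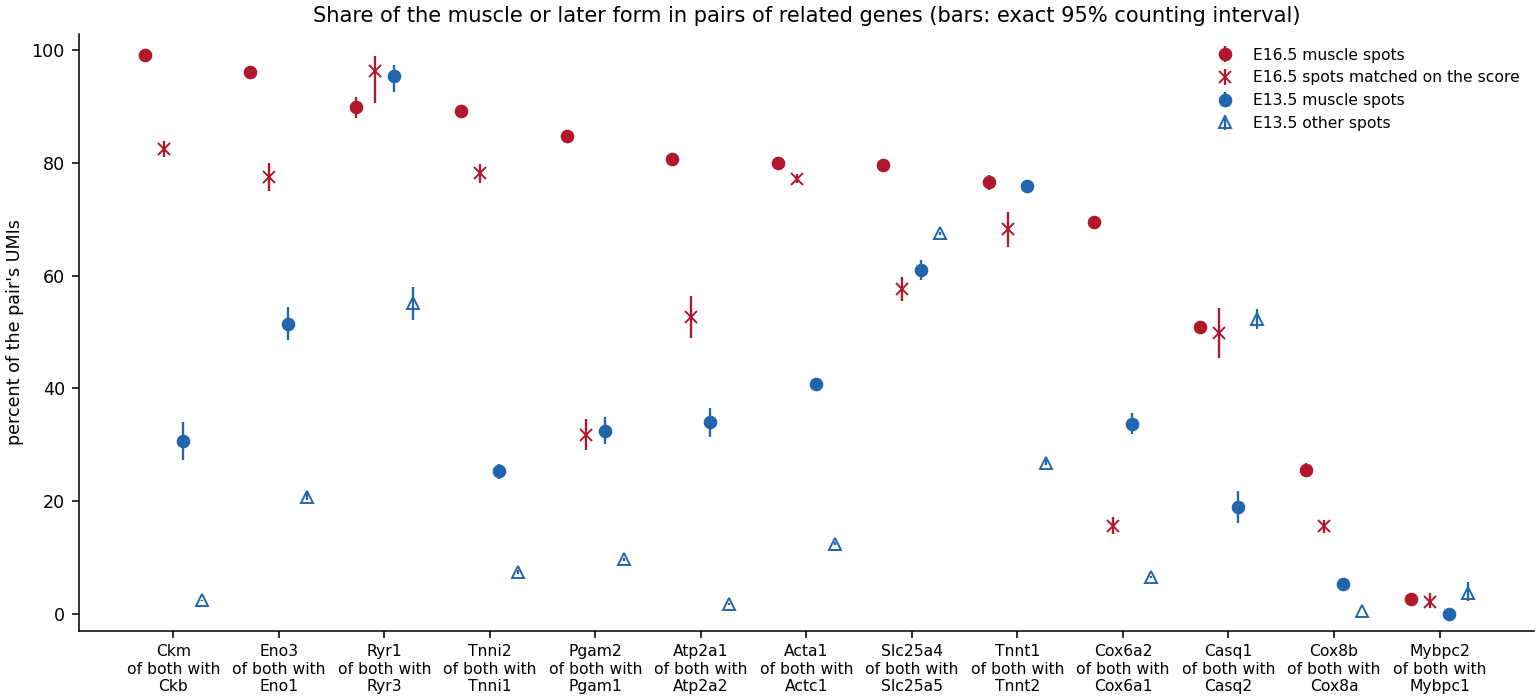
Percent of the UMIs of 13 gene pairs that came from the first gene, in E16.5 skeletal muscle spots (red points), E16.5 spots matched on the score (red crosses), E13.5 skeletal muscle spots (blue points) and E13.5 other spots (blue triangles), with exact 95% counting intervals. Acta1 is at 80.0%, 77.2% and 40.7% in the first, second and blue-point sets, while Pgam2 is at 84.8%, 31.8% and 32.5%.

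Since E16.5 members held more muscle RNA, 100 E16.5 spots were matched to the 100 E13.5 members by the nearest score, an alternative chosen after seeing the data. The matched spots had a median score of 2.39, as the E13.5 members did, 2046880 UMIs, and no spot in common with the E16.5 members. Against the same E13.5 members, 1005 of 9673 genes (10.4%) were higher in them and 897 (9.27%) lower, and of 160 muscle list genes 12 were higher and 63 lower (median -0.70, against -0.17 over all genes). Matched spots held more RNA of several other tissues than the E13.5 members did. At least 2-fold higher were 6 of 7 brown fat genes, 8 of 8 epithelial genes, 10 of 14 fibroblast genes and 6 of 6 immune genes. Neuronal genes were higher in 0 of 5 and heart genes in 1 of 4, and 4 of 4 liver genes were lower. In the other spots 6 of 7 brown fat, 6 of 8 epithelial, 6 of 14 fibroblast and 2 of 6 immune genes rose too. Muscle content and stage cannot be told apart in either comparison.

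Direction therefore depended on the choice of E16.5 spots for many filament and calcium genes. With matched spots the log2 ratios were -0.88 for Ttn, -0.49 for Myl1, -1.10 for Ryr1 and -0.44 for Sln, where the 100 highest spots gave 2.10, 2.68, 1.33 and 2.64. Ckm kept 3.95, Myoz1 3.13, Casq1 1.39 and Tnni2 1.25, and Acta1 had 0.67. Regulators were lower in 11 of 15 genes with matched spots, synaptic genes in 8 of 10 and fusion genes in 7 of 12, with 0 higher in each. Myod1 was at -3.34, Myog at -2.84, Mymk at -2.69, Chrna1 at -3.25, Fst at -1.83 and Tnnc1 at -2.64, so Myod1, Fst and Tnnc1 were lower at E16.5 against either set of spots, and Myf6 was not higher with matched spots (-0.87). The isoform shares of Acta1 (77.2%), Tnni2 (78.2%), Ckm (82.6%) and Casq1 (49.9%) stayed above those of E13.5 members, while those of Pgam2 (31.8%) and Cox6a2 (15.6%) did not (32.5% and 33.7% in E13.5 members).

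In the other spots of the sections, 740 of 10423 genes (7.1%) rose at E16.5 and 481 (4.61%) fell, and of 130 muscle list genes 77 rose and 3 fell (median 1.34). The stage ratio of the members less that of the other spots was above 1 for 254 of 9970 genes (2.55%) and below -1 for 877 (8.8%). With TMM factors the share above 1 among these was 56.9% in place of 22.5%. Muscle list genes were above 1 in 19 and below -1 in 63 of 170. The muscle lists held 2.61% of UMIs in the other spots at E16.5 and 1.01% at E13.5. More muscle RNA in the other spots lowers this difference by construction, so it does not measure a smaller rise within muscle. The highest differences were those of Mafa, Pvalb, Eef1a2 (4.59), Hspb6 (3.86), Igsf1, Ndrg2, Ckmt2 and Tgm2. Eef1a2, the translation elongation factor of muscle and neurons, had 80.9 CPM in E16.5 members against 1.31 CPM in E13.5 members, and 72.2 against 38.6 CPM in other spots. Mafa, a transcription factor best known from pancreatic beta cells, was counted 325 times in E16.5 members and 3 times in E13.5 members, a ratio of 98.9 (33.6 to 482). The lowest differences were those of Scgb3a2, Scgb3a1, S100a9, Cidea, Fst (-3.51), Cox8b, S100a8 and Gh, of which only Fst and Cox8b belong to a muscle list.

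The patches gave a view of spread inside a section. Among 200 chosen genes, most of them from the muscle lists, the 4 E16.5 patches of at least 8 spots were set beside the 6 E13.5 patches. For 99 genes the E16.5 patches all lay above, for 24 all below, and for 77 the ranges overlapped. The same count was not made over all genes, so these counts are a description. The 13 muscle lists held 12.9% of UMIs in E16.5 members against 3.58% in E13.5 members. Ckm lay between 7957 and 9232 CPM in E16.5 patches and between 13.3 and 267 CPM in E13.5 patches. Myod1 lay between 37.8 and 60.1 CPM against 164 to 255 CPM, and Tnnc1 between 158 and 464 CPM against 647 to 1177 CPM. Mymk patches overlapped, at 176 to 214 CPM against 169 to 202 CPM. The share of Acta1 was 79.8% to 80.3% in E16.5 patches and 35.3% to 49.4% in E13.5 patches, and that of Tnni2 89.3% to 91.7% against 19.4% to 29.7%. Patches of 1 section share an animal and a library and are not replicates.

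**Figure D5:**
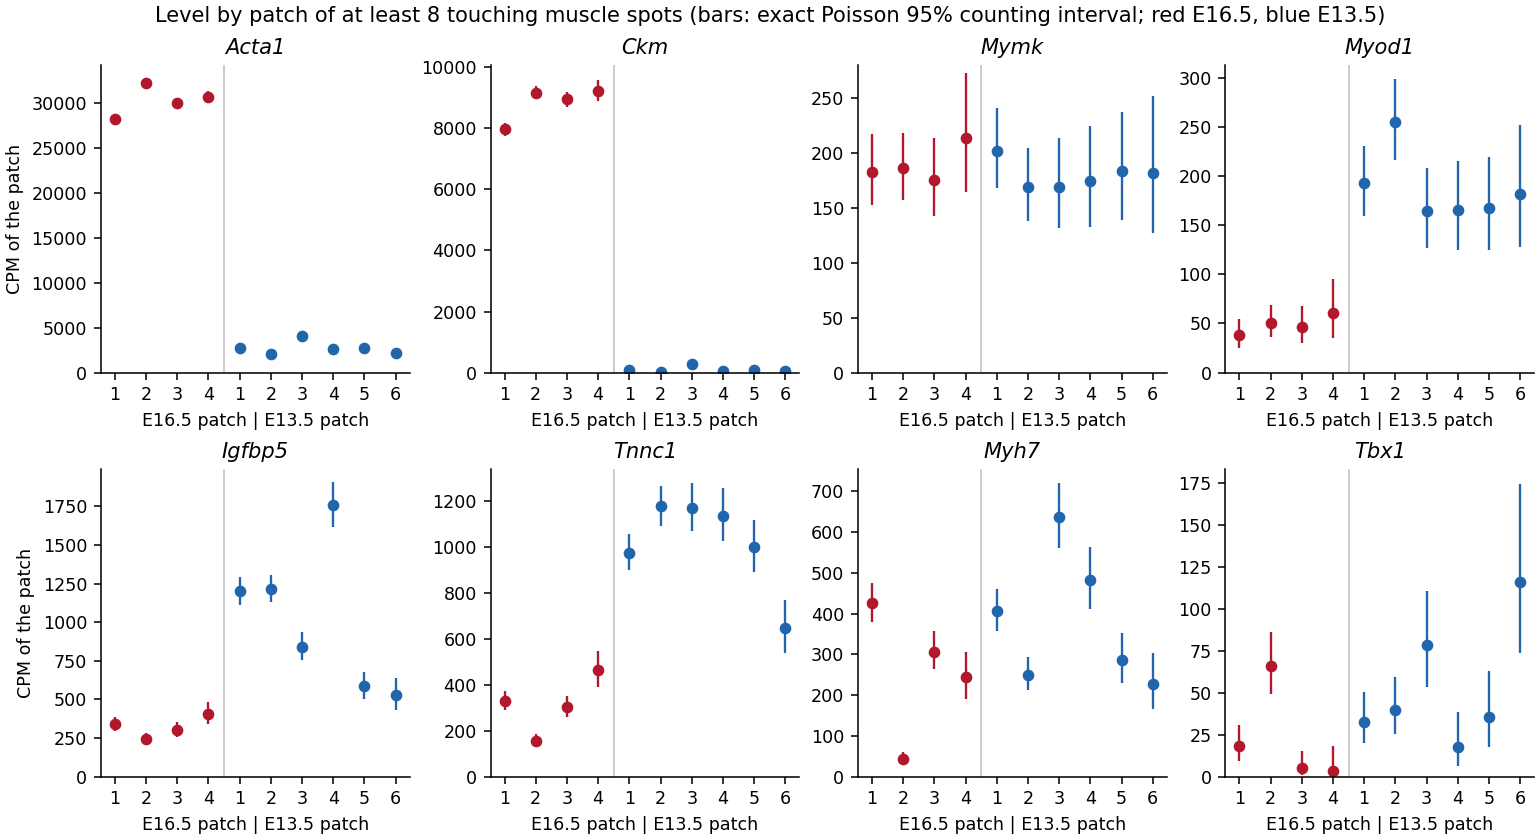
CPM of 8 genes in the 4 E16.5 patches (red, left of the line) and the 6 E13.5 patches (blue, right) of at least 8 touching skeletal muscle spots, with exact Poisson 95% counting intervals and axes starting at 0. Acta1, Ckm, Myod1, Igfbp5 and Tnnc1 separate the stages, Mymk does not, and Myh7 and Tbx1 differ between patches of 1 section.

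Patches of 1 section differed in fibre type and regional genes. The E16.5 patch of 19 spots had 44.7 CPM of slow Myh7 where the other 3 patches had 244 to 425 CPM, and 77.0 CPM of Myh4 against 26.9 CPM in the remaining E16.5 members. It also had 65.8 CPM of Tbx1, a regulator of branchiomeric head muscle, against 26.5 CPM. At E13.5, the first of the 14-spot patches held Hox genes 9 to 13, which mark posterior regions of the body, at 229 CPM (138 UMIs), while the other 5 patches had 0 to 25.3 CPM. The same patch led in Hoxc10, Hoxc9, Pax1 (348 CPM) and Crabp1 (1803 CPM), and its Meox1 level of 172 CPM was the highest of the 6 patches. The other 14-spot patch led in Ckm, with 267 CPM against 42.1 CPM in the remaining E13.5 members. The E13.5 patch of 8 spots had 116 CPM of Tbx1, and 1 of the 11-spot patches 99.7 CPM of Pitx1, a hindlimb and jaw factor. Genes of other tissues led in some patches: the 25-spot E16.5 patch led in the T cell genes Trbc1, Trbc2 and Cd3g, the 15-spot patch in the mast cell genes Tpsb2, Cma1 and Cpa3, and the 22-spot E13.5 patch in the liver genes Apoa2 and Alb.

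Markers of other tissues moved between the stages as well, and their part in the stage differences was not tested. The brown fat list, 8 genes, summed to 994 CPM in E16.5 members against 67.9 CPM in E13.5 members, with a range over spots of 228 to 5638 CPM and 0 to 280 CPM. Liver genes summed to 3.90 CPM in E16.5 members, with 2 of 6 at 0, and to 246 CPM in E13.5 members. Fibroblast and matrix genes summed to 8805 against 5954 CPM and neuronal genes to 80.9 against 197 CPM. Relative to other spots of the same section, cartilage genes were lower in 7 of 7 and neuronal genes in 7 of 7 at both stages, and heart genes in 6 of 7. Tendon genes were higher in 3 of 4 at E13.5 and in 0 of 5 at E16.5.

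The 12 highest stage ratios belonged to genes of muscle and of other tissues, and the order among genes with 0 to 3 UMIs in a group depends on the pseudocount. Ckmt2, Pvalb, Mettl21e, Smtnl1, Ckm, Mybpc2 and Myoz1 were higher in the members than in other spots at E16.5. Krt13, Smgc, Bpifa2, Gpd1 and Thrsp, genes of epithelium, salivary gland and fat, were among the 12 highest and lower in the members than in other spots at E16.5; Krt13 had 60.5 against 177 CPM. Mettl21e, at 71.6 CPM against 0 UMIs, was at least 72.8-fold higher at E16.5. The 12 lowest began with the liver genes Ttr, at least 54.7-fold lower at E16.5, Afp and Alb, followed by S100a9, Kremen2, S100a8, Crabp2, Pax1, Slit2, Crabp1, Foxd1 and Nnat. Crabp1, which binds retinoic acid, had 37.5 CPM in E16.5 members against 488 CPM in E13.5 members, with 103.1 against 464 CPM in the other spots.

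Heart and smooth muscle spots, the 99 or 100 highest of each section by 5 genes of their own, were set beside the members as the other muscle tissues of the sections. Against heart spots 766 of 8523 genes (8.99%) were higher in skeletal muscle spots at E16.5 and 509 (5.97%) lower, and 97 of 162 muscle list genes were higher and 17 lower. At E13.5, 987 of 9308 genes (10.6%) were higher and 699 (7.51%) lower, and 74 of 158 muscle list genes were higher and 40 lower. Against smooth muscle spots the shares were 6.9% higher and 17.7% lower at E16.5, with 114 higher and 10 lower of 167 muscle list genes, and 4.51% higher and 4.48% lower at E13.5, with 107 higher and 1 lower of 151. For some genes the order of the tissues differed between the stages. Ttn had 2266 CPM in skeletal muscle spots against 861 CPM in heart spots at E16.5 and 530 against 754 CPM at E13.5, and Casq1 had 1136 against 62.1 CPM at E16.5 and 47.2 against 225 CPM at E13.5. Actc1 was of similar size in both tissues at E16.5, 7486 against 6582 CPM, while Acta1 had 29992 against 372 CPM.

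Myod1 was counted in 76% of E16.5 members and 99% of E13.5 members, and in 18.2% and 55.0% when each spot was thinned to 5000 UMIs. In heart spots, which should lack the gene, it was counted in 7.07% at E16.5 and 4% at E13.5, with median depths of 52065 and 35058 UMIs. Pax7 was counted in 36% and 51% of members unthinned and in 9.09% and 7% thinned, so no order is read from it. Pvalb was counted in 82% of E16.5 members and in 0 of 100 E13.5 members, which allows a share of up to 3% by a limit of 3 counts of the total.

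Lgr5, the gene the series is named for, encodes a receptor for R-spondins that marks stem cells in several epithelia. It had 3 UMIs in E16.5 members (0.899 CPM) and 26 in E13.5 members (8.53 CPM), against 3.82 and 5.14 CPM in the other spots. It was counted in 3% and 24% of members, or 2.02% and 6% after thinning, and in 3.03% and 2% of heart spots. Isoform shares were also taken in the 25 highest spots by the same score of each P0 esophagus section. For most pairs the stage order did not continue, among them those of Acta1, Tnni2, Ckm, Atp2a1, Eno3 and Casq1. Acta1 made up 40.7% of Acta1 and Actc1 in E13.5 members, 80.0% in E16.5 members and 53.3% and 59.3% in the P0 sections. Tnni2 made up 25.3%, 89.3%, and 46.3% and 51.4% of Tnni2 and Tnni1. Ckm made up 30.6%, 99.2%, and 48.7% and 71.7% of Ckm and Ckb. Atp2a1 made up 34.0%, 80.8%, and 49.7% and 63.5% of Atp2a1 and Atp2a2. Of all the pairs taken, only those of Ryr1 and Actn3 continued the order. Ryr1 made up 95.4%, 89.9%, and 63.1% and 75.5% of Ryr1 and Ryr3. Actn3 made up 4.87%, 7.56%, and 16.8% and 12.8% of Actn3 and Actn2. The P0 spots come from esophagus alone and the embryo spots from muscle of unnamed position, so tissue and stage cannot be told apart.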

How the data were processed

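The deposited matrices hold raw counts, UMIs per gene and spot, which the authors made with Space Ranger 2.0.0 per the file headers, against mm10 per the submitters' processing notes. All values were whole numbers and no normalization had been applied. Totals were 105835664 UMIs at E16.5 and 98645152 at E13.5, over 3588 and 3220 kept spots. The 2 sections used 2542 barcodes in common, which are addresses of the 4992 grid positions and not shared cells. No doublet caller was run, since a spot is a region. The sources used here do not say how reads shared by near-identical genes were counted.

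UMIs were summed over spots and scaled to CPM. Genes with a mean of at least 10 CPM over the sums compared were used, and log2 ratios had a pseudocount of 0.5 CPM, which understates the change of low genes. Intervals are exact Poisson, Clopper-Pearson or conditional 95% intervals. Isoform shares are not scaled by length, since UMIs mark RNA ends. The score of the heart spots used Myl7, Myh6, Nppa, Nppb and Tnni3, and that of the smooth muscle spots Myh11, Actg2, Cnn1, Lmod1 and Tagln.

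Named genes are the 15 highest ratios of members over other spots at each stage, the 12 highest and lowest stage ratios, the 8 highest and lowest differences, among genes of at least 20 CPM, and examples from the gene lists and gene pairs, with Lgr5. Genes of the score, mitochondrial, hemoglobin, ribosomal protein, unnamed and sex-linked marker genes were left out of these ranks. Genes that lead in a patch were chosen after their values were seen. The members and lists were chosen with earlier results of these data known. Positions come from the RefSeq table of GRCm38.p6, which matched 26335 of 32285 genes and all 60 genes named by rank.

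Python 3.11.15 with numpy 2.4.6, scipy 1.17.1 and pandas 2.3.3 was used, with edgeR 4.0.16 in R 4.3.3 for TMM factors. The code was tested on simulated counts.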

Additional observations from a re-analysis of the deposited data

Results flagged for a closer look

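Hspb7, which encodes a small heat shock protein of heart and skeletal muscle, was higher in the members than in other spots at E16.5 (log2 ratio 1.21) and lower at E13.5 (-1.87). Tgm2, which encodes tissue transglutaminase, showed the same pair of directions, with 1.28 at E16.5 and -1.86 at E13.5. Both stood out because the muscle ratio has opposite signs at the 2 stages. With 1 section per stage the difference was not tested.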

How the results depend on the processing

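With TMM factors the members against other spots at E16.5 gave 840 genes higher and 1064 lower (44.1% higher among called genes, in place of 21.9%). The stage comparison gave 1265 and 542, its difference from the other spots 524 and 397, and 11 muscle list genes and 4 cell cycle genes fell. With a mean of at least 3 CPM, 3148 genes were lower in members at E16.5 and 1968 at E13.5, and the stage differences counted 464 above 1 and 1579 below -1. With at least 30 CPM, 634 were lower at E16.5, 262 higher and 486 lower at E13.5, 446 rose and 810 fell between stages, and 106 and 382 differences were counted. These 2 filters test more or fewer genes by construction. With a pseudocount of 5 CPM, 1143 genes fell between stages and 444 differences were below -1.

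With E16.5 spots matched on the score, 897 genes were lower at E16.5, 810 and 477 differences were called, 12 muscle list genes were higher and 63 lower, and 6 cell cycle genes were lower. The log2 stage ratio changed sign for Myl1 (-0.49), Ttn (-0.88), Neb (-0.89), Myh1 (-0.55), Ryr1 (-1.10), Sln (-0.44), Cacna1s (-0.88), Cox6a2 (-0.57), Cav3 (-0.40), Myf6 (-0.87), Rian (-0.66), Meg3 (-0.45) and Agrn (0.047), and the difference for Ckmt2 (-0.90). Of the 108 muscle list genes called between stages, 47 changed sign with matched spots, 46 of the 86 risen, and 0 under the other settings. The cause was not tested. The matched spots and other spots below the median score were chosen after seeing the data.

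Of the counts under planned settings 110 of 131 stayed within 1.5 times. Of the isoform shares 133 of 170 stayed within their counting interval, and 1119 of 1421 single-gene ratios were counted as unchanged. Leaving out members shared with heart removed 0 members. A higher UMI minimum per spot also left the members unchanged, since the lowest member held 2543 UMIs. Neither setting could move an isoform share. Each added 13 counts, 34 isoform shares and 131 single-gene ratios to those that stayed, so the totals overstate stability. Members in a score range shared by both stages gave no value, since the ranges do not overlap. No paired analysis was possible because there is 1 section per stage. With 1 section per stage no spread between animals is known, and ratios of genes with 0 to 3 UMIs in a group are also limited by depth.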
